A study of Mus musculus with 24 samples.

Results

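Gad1, Gad2, Slc32a1, Sst, Pvalb, Vip, Npy, Cck, Reln and Lhx6 are 10 genes that mark the inhibitory interneurons of the hippocampus. They were taken by gene symbol from both deposited count tables, and all 10 of 10 were present among the 55254 genes listed. The question was how high these genes were read in each genotype, as a readout of the share of interneuron RNA. Levels are given in CPM, the number of reads of a gene in each 1000000 reads of its library after scaling between libraries.

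The RNA came from nuclei of the hippocampus. The mice were male, of the C57BL/6N strain, and 6 months old. The 4 genotypes were wild type (WT), Mutyh-/-, Ogg1-/- and the double knockout of both genes (DKO), with no further treatment. Mutyh and Ogg1 are DNA glycosylases, enzymes that remove damaged or mispaired bases from DNA. Nuclei were stained for NeuN, a protein of most mature neurons, and sorted into a stained (NeuN+) and an unstained (NeuN-) fraction, so that 3 libraries per genotype and fraction gave 24 libraries. The study's methods state that tissue or nuclei of several animals were pooled but give different numbers of animals in different places. What separates one replicate from another is therefore not clear, and p-values measure only the spread between these libraries.

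Interneurons make the inhibitory transmitter GABA and keep the firing of the excitatory pyramidal and granule cells in check. Nearly all of them carry the enzymes that make GABA and the transporter that packs it into vesicles, and they differ among themselves by the neuropeptide or calcium-binding protein they hold. Those holding parvalbumin or somatostatin mostly descend from the medial ganglionic eminence of the embryonic brain and keep Lhx6, a transcription factor they need to mature, whereas those holding VIP or CCK mostly come from the caudal ganglionic eminence.

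The libraries held between 56563586 and 96192142 counted reads. The check of the targeted genes went against one label in part. In the NeuN+ fraction Mutyh was read at 1.05, 1.18 and 1.18 CPM in the WT libraries, at 10.6, 10.7 and 9.06 CPM in the libraries labelled Mutyh-/-, and at 7.74, 8.39 and 11.1 CPM in those labelled DKO. Ogg1 was read at 2.54, 3.49 and 3.10 CPM in WT and at 3.34, 3.16 and 2.95 CPM in the libraries labelled Ogg1-/-. Mutyh RNA was thus higher where the gene was labelled as deleted, and Ogg1 RNA overlapped with WT, in the NeuN- fraction as well. Counts over a whole gene do not show which exons were read, so neither gene checks its label, and every direction below is between libraries as they are labelled.

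Of the 10 members, 4 carry the core of the cyclic AMP response element, the sequence bound by the transcription factor CREB, in the 250 bases before a RefSeq start site (build GRCm38.p6). This element is a textbook feature of the somatostatin promoter. In DKO NeuN- nuclei Sst and Vip stood furthest below WT (log2 differences of -0.73 and -0.85), while Gad2 stood nearest to it (-0.06). Vip rested there on 8 to 12 reads per DKO library, with an interval from -1.71 to -0.0014. Npy and Slc32a1, in which no core was found, lay at -0.49 and -0.47, and Cck at -0.47. The lowest member differed between comparisons. It was Sst in Ogg1-/- and DKO NeuN+ nuclei (-0.29 and -0.42). In Mutyh-/- and Ogg1-/- NeuN- nuclei it was Npy (-0.39 and -0.79). In Mutyh-/- NeuN+ nuclei it was Lhx6 (-0.49), which also has no core. Whether the element has a part in these levels was not tested. The lines below show 30 bases around it from the 4 members that carry it, on the strand of the gene and 5′ to 3′. Capitals mark the short core TGACG or its reverse complement, and in Sst the whole palindrome TGACGTCA.
Sst: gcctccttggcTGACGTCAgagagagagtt
Vip: gggatcactactgTGACGtctttcggggag
Cck: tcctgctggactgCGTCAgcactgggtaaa
Gad2: tccatttcccttcCGTCActctctcatctc
They lie at chr16:23890874-23890903 (minus strand) for Sst, chr10:5639126-5639155 (plus strand) for Vip, chr9:121495725-121495754 (minus strand) for Cck and chr2:22622281-22622310 (plus strand) for Gad2. The first matching base lay 48, 79, 47 and 33 bases upstream of the start site, in that order. Both strands were searched in 13 promoters of the 10 members, and the palindrome of Sst holds the short core on each strand, overlapping. Of all 32851 promoters searched in the same way 1.55% held the palindrome and 17.8% the short core, so the short core is common and its presence is a description only.

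The levels per length in WT neurons set out how the members rank once exon length is taken into account. The tests and sums below use counts or CPM instead. By CPM Reln at 82.1 and Gad1 at 69.1 were highest in the WT NeuN+ libraries, and Sst stood at 21.4. On the scale of reads per kilobase of exon in each 1000000 reads (RPKM), Sst was highest in the WT NeuN+ libraries at 32.2 ± 4.8 (SD, n = 3), followed by Cck at 21.8 ± 2.9. Sst encodes somatostatin and Cck encodes cholecystokinin, both neuropeptides. Gad1 at 9.79 ± 0.51 and Gad2 at 7.83 ± 0.38, the enzymes that make GABA from glutamate, came next. Npy, the gene of neuropeptide Y, was read at 6.79 ± 1.04 and overlapped with Gad2 within their spread. Reln was read at 3.75 ± 0.17, Slc32a1 at 2.77 ± 0.34 and Pvalb at 2.71 ± 0.36, and the latter genes did not differ beyond the spread. Lhx6 at 1.52 ± 0.03 and Vip, the gene of vasoactive intestinal peptide, at 0.868 ± 0.023 RPKM closed the order.

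In WT mice 9 of the 10 members were higher in NeuN+ than in NeuN- nuclei and Reln was higher in NeuN- nuclei. All 10 passed an adjusted p of 0.05 and a log2 difference of 1 in edgeR's quasi-likelihood test, while 21.3% of all 33523 genes tested passed with the higher level in NeuN+ and 21.6% with the higher level in NeuN-. Gad1 stood at 74.8 ± 3.9 CPM in NeuN+ and 20.7 ± 0.9 CPM in NeuN- nuclei (n = 3 each, scaled over all 24 libraries), a log2 difference of 1.85. The widest gaps were those of Vip, with a log2 difference of 3.59, and Lhx6, with 3.43. Per the labels the NeuN+ libraries ran on other lanes than the NeuN- libraries, so that lane and fraction cannot be told apart.

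NeuN- nuclei still held reads of these 9 genes. Lhx6 stood at 9.32% of its NeuN+ level, Vip at 8.41%, Gad2 at 10.4%, Cck at 11.5%, Sst at 13.0% and Slc32a1 at 14.9%, whereas Pvalb and Npy stood at 19.9% each and Gad1 at 27.7%. Rbfox3, which encodes NeuN itself, stood at 6.17% and Slc17a7, the vesicular glutamate transporter of excitatory neurons, at 10.9%. Across 12 excitatory neuron genes the median was 11.9%. Gad1 therefore had the largest NeuN- remainder of the 9, above that of Gad2. Gad1 overlaps the antisense gene Gad1os and Slc32a1 the antisense gene Gm14205, Gad2 and Lhx6 overlap small RNA genes on their own strand, and whether the counting used strand is not stated.

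Reln encodes reelin, a secreted protein that guides neuron layering and is made in the adult hippocampus by interneurons and by Cajal-Retzius cells. In WT mice it stood at 88.9 ± 4.1 CPM in NeuN+ and 253.4 ± 13.6 CPM in NeuN- nuclei, 2.85-fold higher in the latter. Of 8 Cajal-Retzius genes, which share Calb2 and Ndnf with the list of other inhibitory neuron genes below, 6 were likewise higher in NeuN-. Among these 6, Trp73 was higher by 15.6-fold and Ebf3 by 67.7-fold. Reln was thus higher in the same fraction as those genes, unlike the other members, and the part of Cajal-Retzius cells in its level was not tested. Reln overlaps antisense genes and pseudogenes, so its count is uncertain as well.

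**Figure D1:**
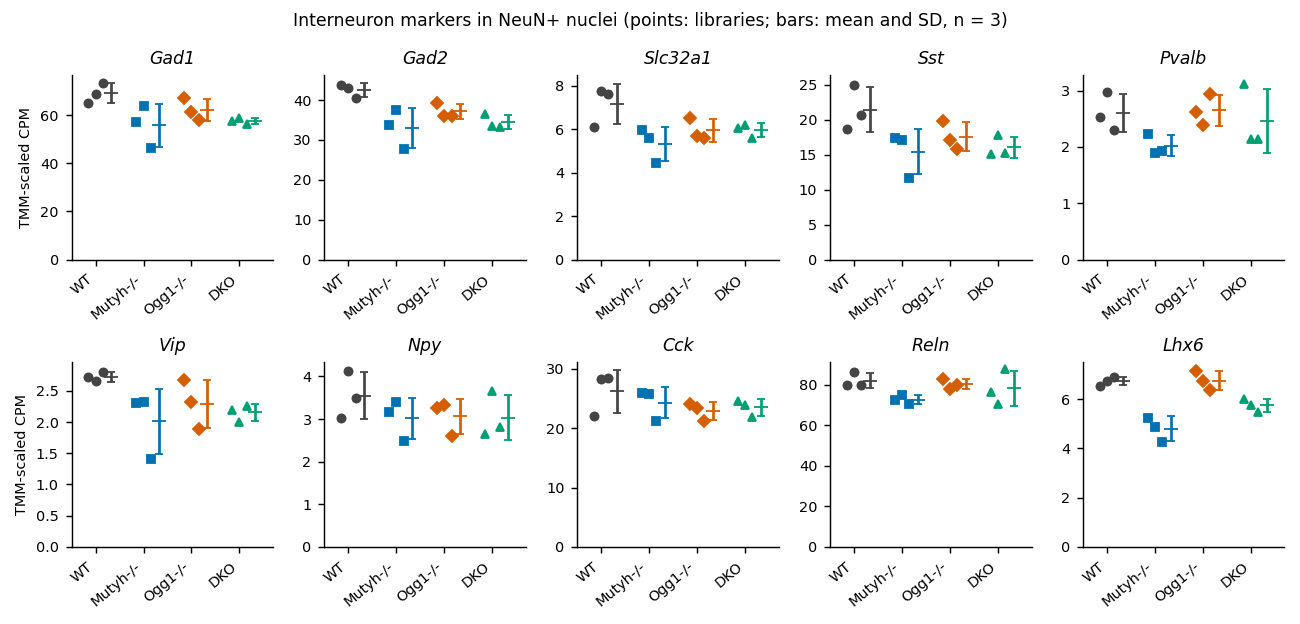
Level of each of the 10 genes in every NeuN+ library, in CPM with a panel and a linear axis per gene. Points are the 3 libraries of each genotype and the bars give the mean and SD. In 8 panels the Mutyh-/- points all lie below the WT points, while Npy and Cck overlap.

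In NeuN+ nuclei every one of the 10 members had a lower mean in the libraries labelled Mutyh-/- than in WT, with a median log2 difference of -0.37 against -0.01 over all 30132 genes tested. For 8 of the 10 all 3 Mutyh-/- libraries lay below all 3 WT libraries, as they did for 10.8% of all genes. Only Lhx6 fell past an adjusted p of 0.05, where 0.641% of all genes passed in either direction, and its log2 difference of -0.49 missed the fold limit of 0.5. With that limit 0 of 10 members and 0.428% of all genes were called. Unadjusted p was under 0.05 for 8 members and 18.7% of all genes. The median log2 difference of the members was -0.24 without Mutyh-/- replicate 3, and all 10 stayed below WT with any library left out.

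Lhx6 (chr2:36081953-36105408, minus strand) was read at 6.55, 6.74 and 6.89 CPM in the WT libraries and at 5.25, 4.89 and 4.26 CPM in the Mutyh-/- libraries. In the Ogg1-/- libraries it was read at 7.15, 6.74 and 6.38 CPM, and in the DKO libraries at 6.00, 5.77 and 5.49 CPM. The Mutyh-/- libraries were the lowest of the fraction without overlap, the DKO libraries came next, and the Ogg1-/- libraries spanned the WT range. The fall in Mutyh-/- was -0.49 on the log2 scale (SE 0.086), or 28.8% with a 95% interval from -37.4% to -19.2% (edgeR quasi-likelihood test, adjusted p = 0.0162). The adjusted p of Lhx6 rose to 0.0540 without Mutyh-/- replicate 2, and to 0.0527, 0.101 and 0.0594 without WT replicate 1, 2 and 3. The log2 difference of Lhx6 itself stayed between -0.56 and -0.41 with any of these libraries left out.

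Tests over all 4 genotypes at once gave Lhx6 again as the single member past an adjusted p of 0.05 in NeuN+ nuclei (adjusted p = 0.0192), where 1.06% of all genes passed, and 5 members and 15.4% of all genes had an unadjusted p under 0.05. Lhx6 missed this threshold without WT replicate 2 (adjusted p = 0.0705), WT replicate 3 (0.0552), Ogg1-/- replicate 2 (0.0573) or Mutyh-/- replicate 2 (0.0503). The knockouts were also compared with each other, a step added after the values had been seen. Lhx6 was lower in Mutyh-/- than in Ogg1-/- NeuN+ nuclei by -0.50 on the log2 scale (SE 0.085, adjusted p = 0.0104), with 1 of 10 members and 0.654% of all genes past the threshold and 2 members and 12.7% of all genes at an unadjusted p under 0.05. That adjusted p was 0.0601 without Ogg1-/- replicate 1. Between DKO and Mutyh-/- 0 of 10 members passed in NeuN+ nuclei (0.163% of all genes), and between DKO and Ogg1-/- 0 of 10 (0.252%) by the quasi-likelihood test. Lhx6 was the 1 member with an unadjusted p under 0.05 in each, beside 6.86% and 4.26% of all genes, and edgeR's likelihood ratio test and DESeq2 also gave 0.

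The genes of GABA synthesis and packaging had lower values in all 3 Mutyh-/- NeuN+ libraries than in WT, short of the threshold. Gad1 (chr2:70553072-70602014, plus strand) was read at 65.0, 68.9 and 73.3 CPM in WT, at 57.3, 64.0 and 46.2 CPM in Mutyh-/-, at 67.0, 61.4 and 57.8 CPM in Ogg1-/- and at 57.7, 58.8 and 56.4 CPM in DKO libraries. Gad2 (chr2:22622205-22693874, plus strand) was read at 43.8, 43.1 and 40.4 CPM in WT, at 33.8, 37.5 and 27.8 CPM in Mutyh-/-, at 39.4, 36.1 and 36.1 CPM in Ogg1-/- and at 36.5, 33.5 and 33.3 CPM in DKO libraries. In Gad2 all 9 knockout libraries lay below the lowest WT library, and the share of all genes that met this was not counted. Slc32a1 (chr2:158610767-158615748, plus strand), the transporter that loads GABA into vesicles, was read at 6.09, 7.77 and 7.60 CPM in WT and at 5.94, 5.59 and 4.43 CPM in Mutyh-/- libraries.

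None of these 3 genes passed the adjusted threshold in the quasi-likelihood test. The log2 differences between Mutyh-/- and WT were -0.31 for Gad1 (95% interval -0.50 to -0.11, adjusted p = 0.108), -0.36 for Gad2 (-0.55 to -0.18, adjusted p = 0.0637) and -0.43 for Slc32a1 (-0.68 to -0.18, adjusted p = 0.0880). Mutyh-/- replicate 3 was the lowest of the 12 NeuN+ libraries for each of them. Without it Gad2 passed (log2 difference -0.25, adjusted p = 0.0419), and it also passed without Mutyh-/- replicate 2 (-0.47, adjusted p = 0.0231). By another tool more members and more genes passed with no fold limit. With edgeR's likelihood ratio test 4 members (Gad2, Lhx6, Slc32a1 and Sst) and 3.78% of all genes passed, and with DESeq2, which added Gad1, 5 members and 3.85% of all genes.

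Sst (chr16:23889573-23890958, minus strand) was read at 18.6, 25.0 and 20.7 CPM in WT, at 17.4, 17.2 and 11.7 CPM in Mutyh-/-, at 19.8, 17.2 and 15.8 CPM in Ogg1-/- and at 15.1, 17.8 and 15.2 CPM in DKO NeuN+ libraries. The Mutyh-/- and DKO libraries lay below every WT library, and only the highest Ogg1-/- library reached into the WT range. The log2 difference was -0.48 for Mutyh-/- (95% interval -0.78 to -0.18, adjusted p = 0.106), -0.42 for DKO (-0.72 to -0.12, adjusted p = 0.205) and -0.29 for Ogg1-/- (-0.58 to 0.01, adjusted p = 0.424). Sst was the member with the highest level per length, and none of these differences passed the test.

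Vip (chr10:5639218-5647617, plus strand) was read at 2.72, 2.65 and 2.81 CPM in WT and at 2.30, 2.33 and 1.41 CPM in Mutyh-/- NeuN+ libraries, a log2 difference of -0.45 (SE 0.17, adjusted p = 0.175). In DKO libraries Vip was read at 2.20, 2.00 and 2.26 CPM, also below WT without overlap. Pvalb (chr15:78191114-78206400, minus strand), which encodes the calcium-binding protein parvalbumin of fast-spiking interneurons, was read at 2.53, 2.98 and 2.30 CPM in WT, at 2.23, 1.89 and 1.93 CPM in Mutyh-/-, at 2.62, 2.39 and 2.94 CPM in Ogg1-/- and at 3.13, 2.13 and 2.14 CPM in DKO libraries. Pvalb was below WT without overlap in Mutyh-/- alone, with a log2 difference of -0.37 (95% interval -0.71 to -0.02, adjusted p = 0.238). In Ogg1-/- its libraries lay inside the WT range, and in DKO they spanned it.

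Npy (chr6:49822710-49829507, plus strand) lay between 3.03 and 4.13 CPM in WT and between 2.48 and 3.39 CPM in Mutyh-/- NeuN+ libraries, and Cck (chr9:121489824-121495694, minus strand) between 22.1 and 28.4 CPM in WT and 21.2 and 25.9 CPM in Mutyh-/-. Both overlapped between the groups, and their log2 differences of -0.25 and -0.11 had intervals that included 0. Npy lies on the chromosome of Ogg1 at a distance of 63.5 Mb, and no other member shares a chromosome with either targeted gene. Reln (chr5:21884454-22344702, minus strand) was read at 80.0, 86.5 and 79.8 CPM in WT and at 72.4, 75.2 and 70.6 CPM in Mutyh-/- NeuN+ libraries, a log2 difference of -0.17 (95% interval -0.32 to -0.03, adjusted p = 0.185). It was the smallest difference among the 8 members without overlap. In DKO libraries Reln was read at 76.6, 70.6 and 87.8 CPM, which spanned WT.

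The libraries labelled Ogg1-/- and DKO were compared with the same 3 WT libraries, so the 3 comparisons are not independent of each other. In Ogg1-/- NeuN+ nuclei 8 of 10 members had a lower mean than WT, the median log2 difference was -0.19 against 0.01 over all genes, and only Gad2 lay below WT without overlap, where 10.2% of all genes did. By edgeR's quasi-likelihood test 0 of 10 passed with the fold limit (0.574% of all genes) and 0 without it (1.1%), 2 members and 12.3% of all genes had an unadjusted p under 0.05, and the likelihood ratio test and DESeq2 also gave 0 (2.43% and 2.47% of all genes). The median log2 difference was -0.12 without Ogg1-/- replicate 3. Lhx6 had a log2 difference of 0.01 in this comparison, with a 95% interval from -0.17 to 0.18. In Mutyh-/- the interval of Lhx6 ran from -0.67 to -0.31.

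In DKO NeuN+ nuclei all 10 members had a lower mean than WT, with a median log2 difference of -0.24 against 0.00 over all genes. The DKO libraries lay below WT without overlap for 5 members, Gad1, Gad2, Sst, Vip and Lhx6, where 9.49% of all genes did. By the quasi-likelihood test 0 of 10 passed with the fold limit (0.302% of all genes) and 0 without it (0.494%), and 5 members and 13.5% of all genes had an unadjusted p under 0.05. Gad2 came nearest with a log2 difference of -0.30 (95% interval -0.48 to -0.12, adjusted p = 0.138), and it was the 1 member that DESeq2 passed without a fold limit (2.11% of all genes), against 0 for the likelihood ratio test (1.87%). Lhx6 had a log2 difference of -0.23 (95% interval -0.41 to -0.05, adjusted p = 0.255).

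**Figure D2:**
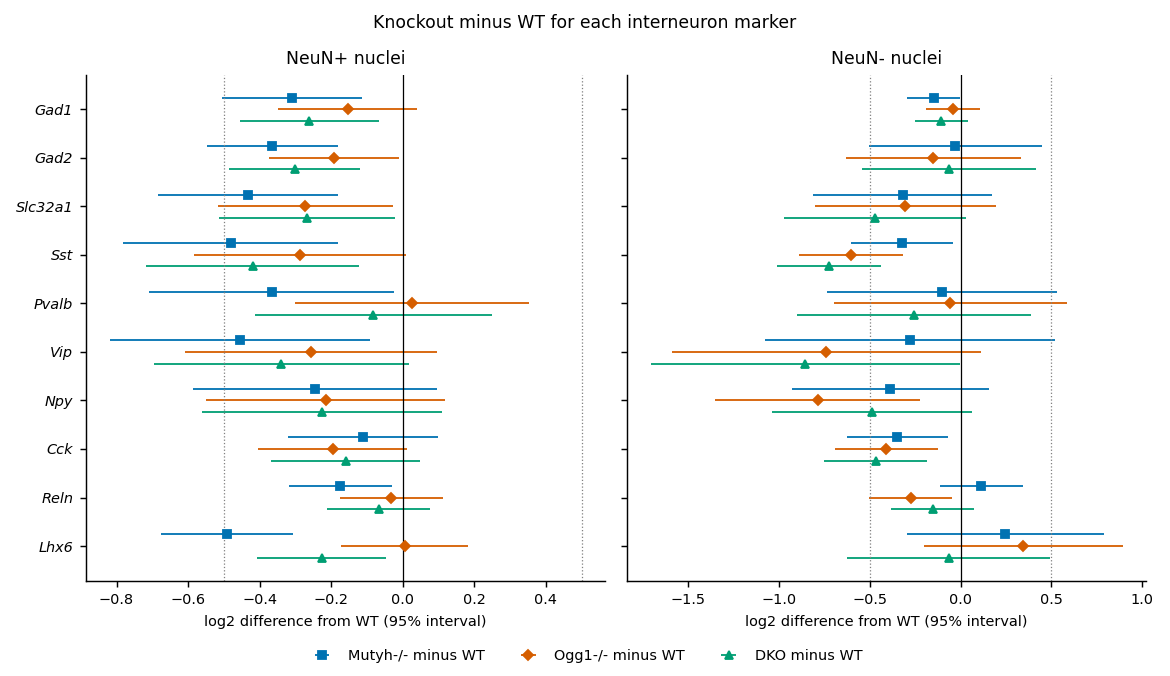
Log2 difference of each knockout from WT for the 10 genes, in NeuN+ and NeuN- nuclei, with 95% intervals from the quasi-likelihood fit. The dotted lines mark the fold limit of 0.5. Most points lie left of 0, Lhx6 in Mutyh-/- NeuN+ nuclei at -0.49 is the one past an adjusted p of 0.05, and intervals are wider in NeuN- nuclei.

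In sorted nuclei counted in bulk, fewer interneurons and less RNA per interneuron cannot be told apart. As a measure of the balance between inhibitory and excitatory RNA, the summed CPM of Gad1, Gad2 and Slc32a1 was set against that of Slc17a7 in each NeuN+ library. The sum stood at 118.7 ± 3.4 CPM in WT, 94.2 ± 14.5 CPM in Mutyh-/-, 105.2 ± 7.0 CPM in Ogg1-/- and 98.0 ± 2.5 CPM in DKO libraries (SD, n = 3 each). As a percentage of Slc17a7 it was 75.7, 75.6 and 70.2 in WT, 56.6, 60.8 and 55.1 in Mutyh-/-, 77.5, 69.0 and 71.2 in Ogg1-/-, and 68.9, 57.8 and 67.5 in DKO libraries. On this scale the Mutyh-/- and DKO libraries lay below WT and the Ogg1-/- libraries around it. Against the summed level of 12 excitatory neuron genes the sum was 2.23% to 2.50% in WT, while the Mutyh-/- libraries lay between 1.52% and 1.79%, those of Ogg1-/- between 1.88% and 2.21% and those of DKO between 1.70% and 1.85%, so that all 9 knockout libraries lay below WT. In NeuN- nuclei the ratio to Slc17a7 lay differently. There the sum was 138.3% to 141.8% of Slc17a7 in WT, while the Mutyh-/- libraries lay between 131.3% and 201.3%, those of Ogg1-/- between 159.4% and 169.1% and those of DKO between 165.9% and 209.6%, with the last 2 groups above WT without overlap. The Slc17a7 level of NeuN- nuclei itself was 18.9 to 22.2 CPM in WT, 16.0 to 17.8 CPM in Ogg1-/- and 14.5 to 15.2 CPM in DKO. Because the members were chosen with results known, no test was run on this sum.

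The excitatory genes did not move with the members in Mutyh-/- NeuN+ nuclei. Of 12 excitatory neuron genes 7 were above and 5 below WT, with a median log2 difference of 0.01, and their summed level ran from 5171 to 5982 CPM against 4800 to 5261 CPM in WT. The 6 genes of all neurons were all above WT, with a median of 0.11. In Ogg1-/- and DKO NeuN+ nuclei the median of the excitatory genes was -0.16 and -0.10, beside medians of -0.19 and -0.24 for the members. In Ogg1-/- 7 of the 12 lay below WT without overlap and 0 above, against 1 of 10 members below. In DKO 5 lay below and 1 above, against 5 members below. Their mean summed level was yet higher, 5222 CPM in Ogg1-/- and 5494 CPM in DKO against 5074 CPM in WT, which enters the ratio given above. The 6 Cajal-Retzius genes that could be tested had a median log2 difference of -0.55 in Mutyh-/-, and 6 astrocyte genes one of -0.35, at summed levels of 28.2 to 32.1 CPM against 36.5 to 38.9 CPM in WT for the former and 38.6 ± 1.2 CPM against 43.4 ± 6.1 CPM (SD, n = 3 each) for the latter. Calb2 and Ndnf are among these Cajal-Retzius genes and also in the list of other inhibitory neuron genes, so those lists are not separate. No gene of the excitatory, all-neuron, Cajal-Retzius or astrocyte list passed the adjusted threshold in Mutyh-/- NeuN+ nuclei. The part of these genes in the members' levels was not tested.

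**Figure D3:**
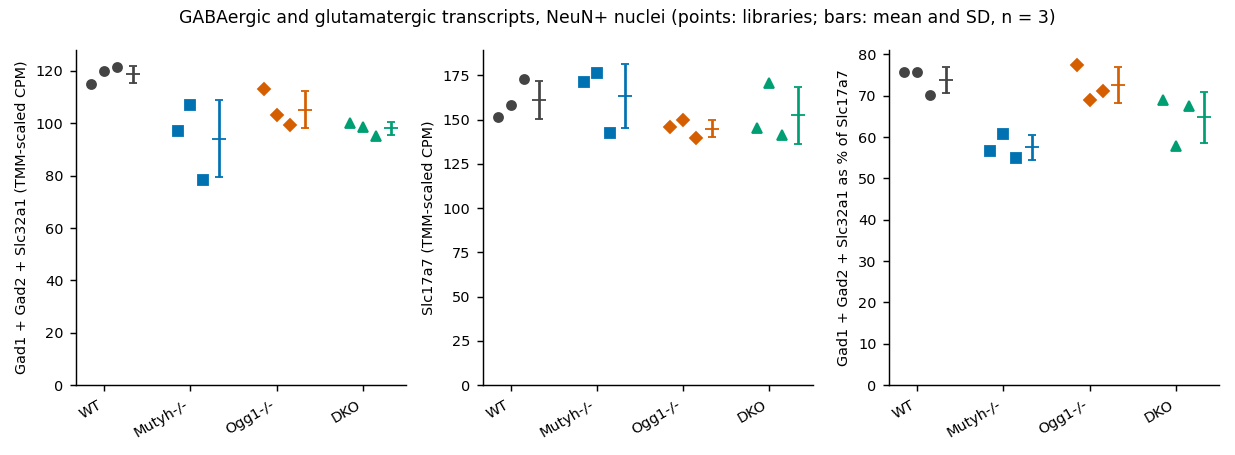
Summed CPM of Gad1, Gad2 and Slc32a1, CPM of Slc17a7, and the first as a percentage of the second in each NeuN+ library. Points are libraries and bars the mean and SD of 3. The percentage ran from 55.1 to 60.8 in Mutyh-/- and from 70.2 to 75.7 in WT libraries.

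Other genes known from inhibitory neurons were examined as a list of 37, all of which could be tested in NeuN+ nuclei. By the limits used between the WT fractions, 19 of them were higher in NeuN+ and 5 in NeuN- nuclei. The list is thus not specific to NeuN+ nuclei. Its mean summed level in NeuN+ nuclei was 3019 CPM in WT, 2999 CPM in Mutyh-/-, 3123 CPM in Ogg1-/- and 2997 CPM in DKO libraries. In this sum the libraries of each knockout overlapped with WT. In Mutyh-/- 28 of 37 lay below WT with a median log2 difference of -0.13, beside 51.9% of all genes below WT. Of the list 1 gene passed the adjusted threshold, beside 0.641% of all genes. That gene was Maf, a transcription factor of interneurons from the medial ganglionic eminence, which was read at 16.2, 16.0 and 15.2 CPM in WT and at 12.4, 12.5 and 11.8 CPM in Mutyh-/- libraries. Maf fell by 0.37 on the log2 scale (SE 0.061, adjusted p = 0.00954), and its adjusted p was 0.0537 without WT replicate 1 and 0.0871 without WT replicate 2. The Ogg1-/- libraries of Maf lay between 15.7 and 17.4 CPM and the DKO libraries between 14.1 and 15.3 CPM. Maf and Lhx6, both genes of the same interneuron lineage, were thus the list's and the members' genes past the threshold in Mutyh-/-.

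In Ogg1-/- NeuN+ nuclei 21 of the 37 lay below WT (median -0.02) and in DKO 27 of 37 (median -0.09). Of all genes 47.8% and 50.1% lay below WT, in that order. In each comparison 1 gene of the list passed, beside 1.1% and 0.494% of all genes, and it was Nr2f2 both times. Nr2f2 encodes COUP-TFII, a nuclear receptor of interneurons from the caudal ganglionic eminence. It was read at 11.4, 12.7 and 12.4 CPM in WT, at 10.8, 9.09 and 10.02 CPM in Mutyh-/-, at 9.57, 8.91 and 9.39 CPM in Ogg1-/- and at 7.88, 8.49 and 9.70 CPM in DKO libraries. All 9 knockout libraries of Nr2f2 lay below the lowest WT library, and here too the share of all genes was not counted. On the log2 scale Nr2f2 fell by 0.39 (adjusted p = 0.0399) in the former and by 0.49 (adjusted p = 0.0227) in the latter comparison. In Ogg1-/- the adjusted p of Nr2f2 rose above the threshold without any one of the 6 libraries, to between 0.0572 and 0.206, and in DKO it rose to 0.0662 without DKO replicate 2, 0.159 without WT replicate 2 and 0.103 without WT replicate 3.

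Receptors of the members' products, namely GABA-B, somatostatin, neuropeptide Y, VIP, cholecystokinin and reelin receptors with the adaptor Dab1, held 15 testable genes of 17. By the quasi-likelihood test 0 passed in any knockout or fraction, and their median log2 difference in NeuN+ nuclei was -0.02 in Mutyh-/-, 0.01 in Ogg1-/- and -0.03 in DKO. Their unadjusted p was under 0.05 for 1 higher and 3 lower genes in Mutyh-/-, 1 and 2 in Ogg1-/-, and 2 and 2 in DKO, and in NeuN- nuclei for 0 and 1, 1 and 1, and 0 and 4. Of 12 genes for the uptake, breakdown and supply of GABA, 0 passed in NeuN+ nuclei, and their median was -0.13 in Mutyh-/-, -0.01 in Ogg1-/- and -0.12 in DKO. Unadjusted p was under 0.05 for 1 higher and 3 lower of them in Mutyh-/-, for 0 in Ogg1-/- and for 1 lower in DKO.

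**Figure D4:**
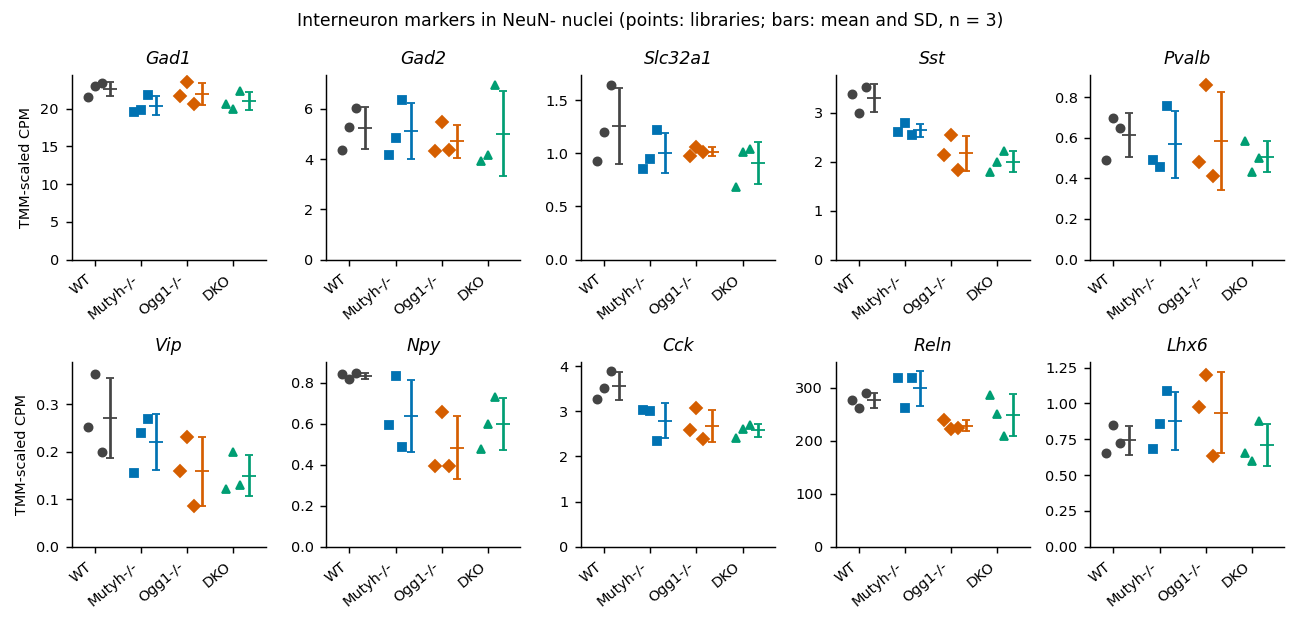
Level of each of the 10 genes in every NeuN- library, in CPM with a panel and a linear axis per gene. Points are the 3 libraries of each genotype and the bars give the mean and SD. Sst runs from 2.99 to 3.52 CPM in WT and lies lower in all 9 knockout libraries.

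In NeuN- nuclei Sst and Cck were the members whose 9 knockout libraries all lay below the lowest WT library, short of the threshold. The share of all genes that met this was not counted, and the 9 libraries were set against the same 3 WT libraries. Sst was read at 3.39, 2.99 and 3.52 CPM in WT, at 2.60, 2.79 and 2.54 CPM in Mutyh-/-, at 2.13, 2.55 and 1.84 CPM in Ogg1-/- and at 1.79, 1.99 and 2.22 CPM in DKO libraries. The DKO libraries were the lowest on average. The log2 difference was -0.73 for DKO (95% interval -1.01 to -0.44, adjusted p = 0.0587), -0.60 for Ogg1-/- (-0.89 to -0.32, adjusted p = 0.0893) and -0.32 for Mutyh-/- (-0.60 to -0.04, adjusted p = 0.301), so that none passed the quasi-likelihood test. Sst passed in DKO and in Ogg1-/- by the likelihood ratio test (adjusted p = 0.00115 and 0.0163) and by DESeq2 (0.000597 and 0.00804).

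Cck was read at 3.27, 3.52 and 3.90 CPM in WT, at 3.04, 3.00 and 2.35 CPM in Mutyh-/-, at 2.58, 3.07 and 2.38 CPM in Ogg1-/- and at 2.42, 2.61 and 2.71 CPM in DKO NeuN- libraries. As with Sst, no knockout library of Cck reached the WT range, and the log2 differences were -0.35, -0.41 and -0.47 (adjusted p = 0.273, 0.238 and 0.204). Npy was read at 0.841, 0.819 and 0.847 CPM in WT and at 0.394, 0.660 and 0.395 CPM in Ogg1-/- libraries, a log2 difference of -0.79 (SE 0.26, adjusted p = 0.255). Vip rested on 5 to 24 reads per NeuN- library, and its log2 difference of -0.85 in DKO had a 95% interval that reached from -1.71 to just below 0 (adjusted p = 0.404).

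The genes of GABA synthesis and packaging overlapped with WT in every knockout in NeuN- nuclei. Gad1 was read at 21.5, 23.0 and 23.4 CPM in WT and at 20.7, 20.0 and 22.4 CPM in DKO libraries, with overlap and a log2 difference of -0.11 (95% interval -0.25 to 0.04). Gad2 had log2 differences of -0.03, -0.15 and -0.06 in Mutyh-/-, Ogg1-/- and DKO, and its libraries ran from 4.37 to 6.03 CPM in WT and from 3.91 to 6.97 CPM in DKO. Slc32a1 was read at 0.928, 1.20 and 1.64 CPM in WT and at 0.685 to 1.22 CPM in the knockout libraries, with log2 differences of -0.32, -0.30 and -0.47 in Mutyh-/-, Ogg1-/- and DKO whose intervals all included 0. Its difference in DKO was thus of the size of that of Cck, with a wider interval (-0.98 to 0.03 against -0.75 to -0.18). Lhx6 lay at 0.655, 0.850 and 0.722 CPM in WT and at 0.685, 0.858 and 1.09 CPM in Mutyh-/- NeuN- libraries, a log2 difference of 0.25 (95% interval -0.30 to 0.79) from 36 to 85 reads per library. That interval left out the -0.49 found for Lhx6 in Mutyh-/- NeuN+ nuclei. The NeuN- interval of Gad1 also left out its NeuN+ difference, in Mutyh-/- (-0.295 to -0.0018 against -0.309) and in DKO (-0.253 to 0.041 against -0.261). The same held for Sst in Ogg1-/- and DKO, Reln in Mutyh-/- and Ogg1-/-, Cck in DKO and Npy in Ogg1-/-. The NeuN- intervals of Gad2, Slc32a1, Pvalb and Vip held the NeuN+ difference of the same gene in each knockout. Such a comparison leaves out the error of the NeuN+ value. The interaction given below is the test of such a gap, and no member passed it.

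Reln, with the highest level among the members in NeuN- nuclei, was read at 278, 263 and 290 CPM in WT, at 319, 262 and 319 CPM in Mutyh-/-, at 240, 222 and 224 CPM in Ogg1-/- and at 287, 251 and 208 CPM in DKO libraries. The Ogg1-/- libraries alone lay below WT without overlap, with a log2 difference of -0.27 (95% interval -0.50 to -0.05, adjusted p = 0.321). In the same libraries all 8 Cajal-Retzius genes had a mean below WT (median log2 difference -0.30) and summed to between 153.8 and 168.8 CPM against 172.5 to 192.4 CPM in WT. In Mutyh-/- they parted, since Reln had a log2 difference of 0.12 (95% interval -0.11 to 0.34) while 6 of 8 Cajal-Retzius genes were below WT (median -0.12). Reln was also measured against the test of any difference among the genotypes, where its adjusted p was 0.254.

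Counted over the NeuN- members, 8 of 10 had a mean below WT in Mutyh-/- (median log2 difference -0.21), 9 of 10 in Ogg1-/- (-0.29) and 10 of 10 in DKO (-0.36), beside medians of -0.01, 0.00 and 0.01 over all 31863 genes tested. These medians rested in part on single libraries. The Mutyh-/- median was -0.10 without Mutyh-/- replicate 1, -0.08 without WT replicate 2 and -0.10 without WT replicate 3, the Ogg1-/- median -0.14 without WT replicate 3, and the DKO median -0.22 without WT replicate 3. Libraries lay below WT without overlap for 2 members in Mutyh-/- (10.2% of all genes), 4 in Ogg1-/- (10.7%) and 4 in DKO (9.15%). By edgeR's quasi-likelihood test with the fold limit 0 of 10 were called in Mutyh-/- (0.273% of all genes), in Ogg1-/- (0.229%) and in DKO (0.116%), and without it again 0 of 10 in each (0.32%, 0.342% and 0.179%). Unadjusted p was under 0.05 for 3, 4 and 3 members, beside 13.7%, 11.8% and 12.4% of all genes. With no fold limit DESeq2 passed 0, 1 and 1 member (1.9%, 1.84% and 1.42% of all genes) and the likelihood ratio test 0, 1 and 1 (1.12%, 1.16% and 0.948%), the 1 being Sst. Over all 4 genotypes at once 0 members and 0.76% of all genes passed, Sst came nearest (adjusted p = 0.0612), and unadjusted p was under 0.05 for 3 members and 13.5% of all genes, while DESeq2 passed 2 members (4.2%) and the likelihood ratio test 1 (3.1%).

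Between knockouts 0 of 10 members passed in NeuN- nuclei, for DKO against Mutyh-/- (0.148% of all genes), DKO against Ogg1-/- (0.157%) and Mutyh-/- against Ogg1-/- (0.788%). By DESeq2 and by the likelihood ratio test 1 member passed in the last of these (2.32% and 1.74% of all genes) and 0 in the others. The lowest adjusted p of the quasi-likelihood test was 0.326, 0.997 and 0.136 in that order, and unadjusted p was under 0.05 for 2 members (Sst and Reln), 0 and 1 (Reln), beside 11%, 4.34% and 11.5% of all genes.

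Genes of other cell types also had means away from WT in these NeuN- libraries. All 12 excitatory neuron genes had a mean below WT in DKO (median log2 difference -0.28) and 11 of 12 in Ogg1-/- (-0.28), and their summed level was 438.2 to 491.3 CPM in DKO and 461.8 to 516.6 CPM in Ogg1-/- against 537.5 to 601.8 CPM in WT. The 6 astrocyte genes were above WT in both, with medians of 0.25 and 0.30 and summed levels of 1071 to 1163 CPM and 1098 to 1248 CPM against 926.1 to 1028 CPM. The 5 oligodendrocyte genes were below WT in both (median -0.22 each), at summed levels of 4913 to 6067 CPM in DKO and 5510 to 6127 CPM in Ogg1-/- against 6491 to 7239 CPM. Aldh1l1, a folate enzyme of astrocytes, rose by 0.52 on the log2 scale in Ogg1-/- NeuN- nuclei (adjusted p = 0.0483, called), and with any one of the 6 libraries left out its adjusted p lay between 0.0585 and 0.216. Slc6a11, a GABA transporter found mainly on astrocytes, rose by 0.37 in the same comparison (adjusted p = 0.0267), from 154, 162 and 170 CPM in WT to 212, 223 and 194 CPM, and lost the threshold without Ogg1-/- replicate 1 (0.135) or 2 (0.153) or WT replicate 1 (0.166) or 2 (0.127). The part of these shifts in the levels of Sst, Cck and Npy was not tested. Of the other 36 inhibitory neuron genes tested in NeuN- nuclei 0 passed the quasi-likelihood test in any knockout, with an unadjusted p under 0.05 for 4 in Mutyh-/-, 5 in Ogg1-/- and 3 in DKO.

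Whether a knockout acted differently on a member in the 2 fractions was tested as an interaction over all 24 libraries. It passed for 0 of 10 members in Mutyh-/- (0.0209% of all 33523 genes), 0 in Ogg1-/- (0.0537%) and 0 in DKO (0.0567%), also by the likelihood ratio test and DESeq2. Lhx6 in Mutyh-/- came nearest, lower in NeuN+ than in NeuN- nuclei by an interaction of -0.76 on the log2 scale (95% interval -1.25 to -0.26, adjusted p = 0.344 in edgeR's quasi-likelihood test). Reln in Mutyh-/- had an interaction of -0.30 (adjusted p = 0.521), and these 2 were the sole members with an unadjusted p under 0.05 in any knockout, beside 8.58%, 7.09% and 9.4% of all genes in Mutyh-/-, Ogg1-/- and DKO. The difference of Sst between the fractions in DKO was 0.32 with an interval from -0.11 to 0.75, so the lower Sst of either fraction was not shown to differ from that of the other.

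The members also varied together between single libraries. Across the 12 NeuN+ libraries the log2 CPM of Gad1 rose with that of Vip most closely (Pearson r = 0.923, permutation p = 3e-05, adjusted over the 9 relations 0.00027, Spearman rho = 0.846, permutation p = 0.00097, adjusted 0.00291). The values of r for Gad2, Sst and Slc32a1 were 0.907, 0.906 and 0.886, and those for Lhx6, Npy and Cck were 0.773, 0.727 and 0.682. Of the 9 relations 7 passed an adjusted permutation p of 0.05 by r and 6 by rho, with Cck the one between. Pvalb (r = 0.325, adjusted permutation p = 0.309) and Reln (r = 0.516, 0.0949) did not pass. Libraries were exchanged freely across the genotypes, so differences between genotypes enter these permutation p-values. The share of all genes that followed Gad1 as closely was not counted, and the members were chosen with earlier results known.

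Fewer relations passed with fewer libraries. Without Mutyh-/- replicate 3 and WT replicate 3, the 2 libraries farthest from the median of Gad1, 4 relations passed by r, those with Gad2 (0.864), Sst (0.846), Vip (0.788) and Slc32a1 (0.677), and 2 by rho. The relations of Gad1 with Lhx6 (0.5004), Npy (0.650) and Cck (0.443) no longer passed with these 10 libraries. When each library was taken as its deviation from the mean of its genotype, 7 relations passed by r and 6 by rho. Among the 7 were Vip (0.873), Lhx6 (0.789) and Cck (0.778), whereas Pvalb had an r of -0.09 and Reln one of 0.17. Gad2 did not pass by rho (0.531, adjusted permutation p = 0.101). The 3 deviations of a genotype sum to 0 and cannot be exchanged freely, so these permutation p-values can be too small. The deviations were not tested again without Mutyh-/- replicate 3. Libraries of the same genotype that were high in Gad1 were thus also high in Vip, Slc32a1 and Sst, and not in Pvalb or Reln.

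**Figure D5:**
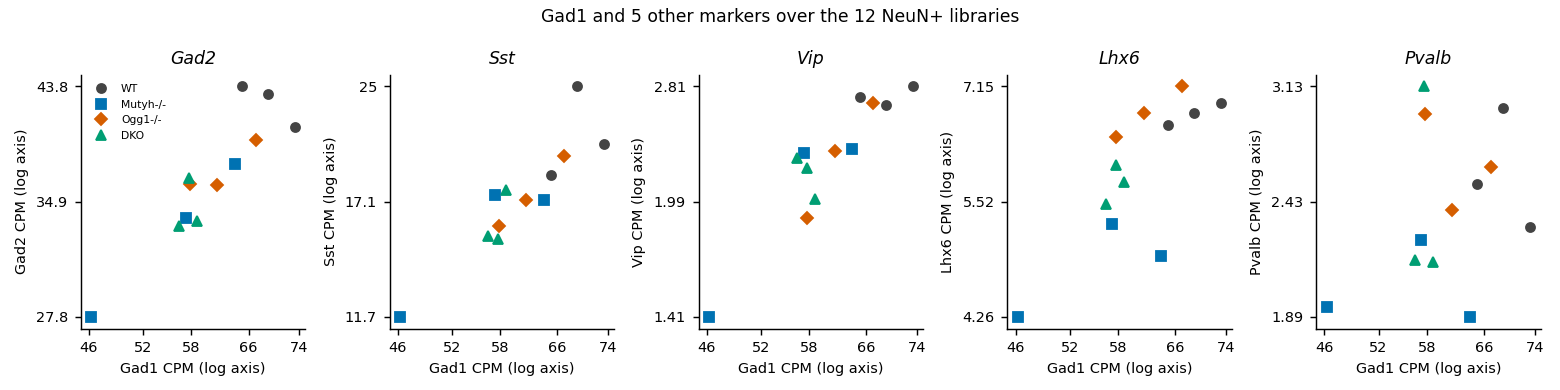
CPM of Gad1 (horizontal, log scale) against CPM of Gad2, Sst, Vip, Lhx6 and Pvalb (vertical, log scale) over the 12 NeuN+ libraries, coloured by genotype. Gad2, Sst and Vip follow Gad1 (r between 0.906 and 0.923), Lhx6 less so (0.773), and Pvalb does not (0.325).

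Genes whose pattern was most like that of the GABA genes were ranked by Pearson r with the mean standardized log2 level of Gad1, Gad2 and Slc32a1, over 30129 genes and the 12 NeuN+ libraries. The 5 nearest were Cplx1 (0.959), Sst (0.938), Kif5c (0.935), Habp4 (0.929) and Slc3a1 (0.926). Sst was thus the nearest of the other members, Vip ranked 8 (0.919) and Lhx6 ranked 166 (0.806). Cplx1 encodes complexin, a regulator of vesicle fusion, and was read at 64.9 to 68.4 CPM in WT and 47.7 to 58.8 CPM in Mutyh-/- libraries. Over the 37 other inhibitory neuron genes the median r was 0.492 with 31 positive, beside a median of -0.02 and 47.9% positive over all genes. These values are a description of 12 libraries, 3 of each genotype, and carry no test.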

How the data were processed

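Gene counts of 24 nuclear RNA libraries were analysed. The deposited tables hold raw counts per gene, which the authors made by aligning paired reads to GRCm38 with HISAT2 2.1.0 and SAMtools 1.10 and counting with featureCounts on an Ensembl annotation. Strand, overlap and multi-mapping settings are not given in the sources used here, and the authors' analysis used R 4.3.2 and edgeR 3.42.4. All 10 members had counts and passed the filter on low counts in both fractions.

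Counts were tested in R 4.3.3 with edgeR 4.0.16 (filterByExpr, TMM scaling, quasi-likelihood test, Benjamini-Hochberg adjustment over all genes tested). Each fraction was fitted with its 12 libraries and 4 genotypes together, and the comparison of fractions and the interaction with all 24 libraries. Knockout differences needed an adjusted p below 0.05 plus a log2 difference beyond 0.5 in either direction to be called, the limits of the study's methods, and differences between fractions one beyond 1. Intervals are 95%. CPM uses the TMM factors of its own fraction, except where both fractions are compared. RPKM uses exon lengths of GENCODE M21. Correlations used a permutation test with 100000 resamples (SciPy 1.17.1). The alternatives were DESeq2 1.42.0, edgeR's likelihood ratio test, other size factors, other filters on low counts, only the genotypes compared, a replicate block and each replicate left out. Genes named are the members, the targeted genes, up to 4 genes per list past the threshold in a comparison, and the 5 most like the GABA genes. Genes of the lists that passed the adjusted p but not the fold limit (Maf, Nr2f2, Slc6a11) were named after their values were seen. The members and the gene lists were chosen with earlier results of these data known. The methods were tested on simulated data.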

Additional observations from a re-analysis of the deposited data

How the results depend on the processing

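Most values kept their direction and side of the threshold. The counts of members past the threshold that moved were these. In the DKO NeuN- comparison 1 was called (Sst) by DESeq2, the likelihood ratio test and without a filter on low counts, against 0. In the Ogg1-/- NeuN- comparison 1 (Sst) was called by DESeq2 and the likelihood ratio test, against 0. In the Mutyh-/- NeuN+ comparison 1 (Lhx6) passed with no fold limit, against 0, and 0 to 1 with a replicate left out. For any difference among the genotypes in NeuN+, DESeq2 passed 3, the likelihood ratio test 2 and the fit without a filter 3, against 1, with 0 to 2 when a replicate was left out. In NeuN- these passed 2, 1 and 1, against 0, with 0 to 1 when a replicate was left out. Mutyh-/- against Ogg1-/- passed 1 in NeuN- by DESeq2 and the likelihood ratio test, against 0, and 0 to 1 in NeuN+ with a replicate left out. The cause was not tested.

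Small differences changed sign. Lhx6 in Ogg1-/- NeuN+ was -0.0063 with only these genotypes fitted, and r of Gad1 with Pvalb was -0.0948 within genotypes. With a replicate left out, log2 differences that reversed ranged as follows. In NeuN+ they were -0.0363 to 0.0450 for Lhx6, -0.0578 to 0.133 for Pvalb and -0.0552 to 0.0067 for Reln in Ogg1-/-, and -0.284 to 0.0344 for Pvalb and -0.157 to 0.0022 for Reln in DKO. In NeuN- they were -0.0939 to 0.0019 for Gad1 and -0.444 to 0.135 for Pvalb in Ogg1-/-, -0.37 to 0.0911 for Gad2 and -0.234 to 0.0332 for Lhx6 in DKO, and -0.216 to 0.0990 for Gad2 and -0.365 to 0.0324 for Pvalb in Mutyh-/-. None of these passed the test.

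The replicate block changed no call of a member, with 0 members called in each comparison with WT, 1 among the genotypes in NeuN+ and 10 between the WT fractions, while the adjusted p of Aldh1l1 in Ogg1-/- NeuN- became 0.0738 with the block. Replicate numbers correlated between genotypes at -0.15 to 0.15 in NeuN+ and -0.27 to 0.30 in NeuN-. Between the fractions of one genotype the 12 same-number pairs correlated at 0.01 to 0.29 (median 0.11, 6 above 0.1) and the others at a median of -0.05. As not every pair passed 0.1 and the labels tie no number to an animal or pool, the numbers were not taken to pair the libraries, and with the block 0 members had an interaction. Requiring 10 reads in every library left Vip untested in NeuN-. In NeuN- nuclei DESeq2 gave no adjusted p for Pvalb and Vip in any knockout, nor for Lhx6, Npy and Slc32a1 in Mutyh-/- and Ogg1-/-.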
